A study of Caenorhabditis elegans with 2 samples.

Results

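Heparan sulfate is a sulfated sugar chain that is built in the Golgi on core proteins and displayed on cell surfaces and in basement membranes. A polymerase of the EXT family extends the chain, and an epimerase and a set of sulfotransferases then modify it in patches. In C. elegans these chains and their core proteins are known for their parts in axon guidance, cell migration, growth factor signalling and body size. The 10 genes described here were taken as a fixed list: the polymerase genes rib-1 and rib-2, the modification genes hse-5, hst-1, hst-2 and hst-6, and the core protein genes sdn-1, gpn-1, lon-2 and unc-52. They are 10 of 19973 protein-coding genes, and 5 of them lie on chromosome X. The genes were chosen by function, but with their calls, signal, rank, distance to the start and AP-1 sites in these lists already known, so the values below are a description and carry no test.

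Binding of the transcription factor FOS-1 was mapped by chromatin immunoprecipitation and sequencing in worms of strain OP304, whose genotype is unc-119(ed3) III with the transgene wgIs304. FOS-1, a Fos family protein that binds DNA as a dimer with other bZIP proteins such as Jun, is tagged with eGFP in this strain. The material was whole L2 larvae of mixed sex, in 2 biological replicates of 1 group, with no second genotype, treatment or stage to compare. Chromatin of all tissues was combined, so a call does not show in which cells FOS-1 was bound.

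Each gene was examined over its annotated span with 5 kb added to both sides, here called its locus. Calls were counted when the summit fell in the locus. The strict list holds 7446 peaks thresholded by the irreproducible discovery rate, or IDR. This rate scores how well calls agree in rank between replicates. The relaxed lists hold 28259 calls from the pooled replicates, 29339 from replicate 1 and 28938 from replicate 2. The peaks of the strict list were the 7446 strongest pooled calls by signal, so a listed peak need not rank as high in each replicate. Signal is the value given by the authors' peak caller, and it is not normalized between lists, so strength is compared within a list or by rank. The sequencing depth behind these values is unknown.

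The loci held 16 IDR peaks, of which 1 was far stronger than the rest. That peak, at the start of rib-2, had a signal of 427.5 and rank 6 of 7446. It was 3.80 times as strong as the next peak of the group, which lay at lon-2 with a signal of 112.6 and rank 1245. The third lay at hst-2 with a signal of 99.2 and rank 1709. The 16 peaks had a median signal of 55.4, below the 64.5 of the whole IDR list, and 4 of the 16 were above the latter. Of the 10 genes, 9 had an IDR peak in the locus, the exception being hse-5. The same rule was met by 57.0% of all protein-coding genes. In a promoter window, from 1000 bp upstream to 250 bp downstream of a transcript start, 6 of the 10 genes had an IDR summit, against 23.4% of all protein-coding genes. These were rib-1, rib-2, hst-2, hst-6, lon-2 and unc-52. These counts come from the lists that were known when the genes were chosen, and nothing is read from them about the group.

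**Figure D1:**
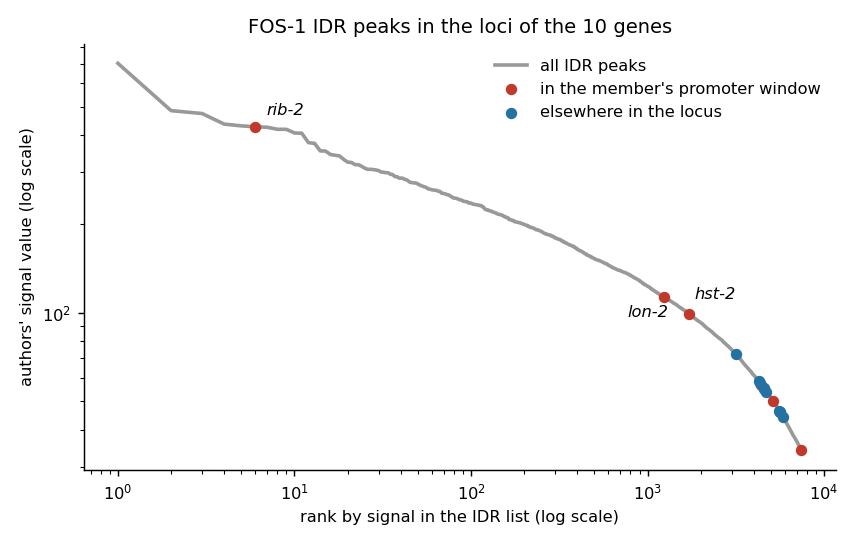
Signal against rank for all 7446 IDR peaks (grey line, both axes on a log scale), with the 16 peaks of the 10 loci as points coloured by whether the summit is in the gene's own promoter window. The rib-2 peak stands at rank 6, and the other 15 lie at rank 1245 or beyond.

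The peak centres that carry this picture are shown on the forward strand of WBcel235, which is the ce11 assembly. Each runs from 50 bases before to 50 bases after the summit. The first is shown because it is the strongest peak and holds an AP-1 site, the DNA word TGACTCA or its reverse complement TGAGTCA to which dimers of Fos and Jun proteins attach. It is set in capitals and lies on chromosome III at 10742606 to 10742706.

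rib-2 promoter peak: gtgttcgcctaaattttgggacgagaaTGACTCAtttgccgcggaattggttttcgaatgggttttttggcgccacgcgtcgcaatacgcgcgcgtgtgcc

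The next are the centres at lon-2 (chromosome X, 4749233 to 4749333), hst-2 (chromosome X, 11207145 to 11207245) and rib-1 (chromosome IV, 11582597 to 11582697). They have no AP-1 site, and capitals mark GATA sites, which GATA factors bind (the word AGATAA, also with T as its first letter or G as its last, on either strand). Each of these centres holds 2.

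lon-2 promoter peak: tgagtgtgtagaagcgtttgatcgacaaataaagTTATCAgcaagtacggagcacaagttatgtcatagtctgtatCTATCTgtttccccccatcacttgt
hst-2 promoter peak: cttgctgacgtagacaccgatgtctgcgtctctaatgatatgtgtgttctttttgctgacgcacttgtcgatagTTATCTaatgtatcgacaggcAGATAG
rib-1 promoter peak: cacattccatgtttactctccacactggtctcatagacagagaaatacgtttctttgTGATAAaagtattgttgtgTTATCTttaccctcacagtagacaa

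The centre at hst-6 (chromosome X, 5275392 to 5275492) is shown as a promoter peak with neither site, and so has no capitals. The weak promoter peak of unc-52, not shown, also has neither.

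hst-6 promoter peak: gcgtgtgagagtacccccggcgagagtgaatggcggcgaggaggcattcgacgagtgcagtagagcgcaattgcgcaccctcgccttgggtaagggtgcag

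The calls near the starts of the polymerase genes differed in strength. rib-2 (WBGene00004361, chromosome III, 10742810 to 10746675, plus strand) encodes a glycosyltransferase of the EXT family that acts in chain synthesis. Its promoter peak covered chrIII:10742481-10742789, between genes. The signal of the overlapping call was 284.6 in replicate 1, where it had rank 9, and 145.4 in replicate 2, where it had rank 5. The summits of both replicates lay close to the pooled one, 0 bp away in replicate 1 and 24 bp away in replicate 2. The pooled summit was 154 bp upstream of the rib-2 start. It was also 224 bp upstream of the start of tbb-1, a beta-tubulin gene on the opposite strand, and the starts are 378 bp apart. The peak therefore lies in the promoter windows of both genes and cannot be given to 1 of them by position.

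The centre of the AP-1 word was 20 bp from the rib-2 summit. Among the 264 IDR peaks with an AP-1 site within 50 bp of the summit, which are 3.55% of all IDR peaks, this peak had the second highest signal. Only the peak at jun-1, the worm Jun gene, was higher among them. By strength alone, as log2 signal in both replicates, the peak most similar to that of rib-2 was the jun-1 peak. The distance was 0.0484 over 2 samples, and it restates strength and gives no further link between the peaks. At jun-1 the signals were 294.3 in replicate 1 and 145.6 in replicate 2. The next most similar peaks were those nearest to the starts of srz-62, a chemoreceptor gene (281.8 and 136.4), and of Y37A1A.2 (293.5 and 137.0, with the start 6382 bp away). Neither of these has an AP-1 site at its summit.

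Other peaks of the rib-2 locus lay at starts of neighbouring genes. A peak 221 bp upstream of dkc-1, also in a promoter window of ran-1, had a signal of 72.4 and rank 3159. The dkc-1 gene encodes dyskerin, a protein that modifies RNA. Peaks of signal 45.8 and 44.3 lay 111 and 312 bp upstream of smap-1. Both overlapped the same call in each replicate, with rank 4130 in replicate 1 and rank 6658 in replicate 2, so in each replicate they stand for 1 call. With 4 IDR peaks, both smap-1 peaks counted, the rib-2 locus had 2.89 per 10 kb, the highest density of the 10 loci. The nuclear chromosomes had 0.743. The loci of sqv-8, cpg-1 and sma-6, described below, also held 4 IDR peaks each, so this count is not particular to rib-2. No density over the loci of all protein-coding genes is given here.

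rib-1 (WBGene00004360, chromosome IV, 11578792 to 11583841, plus strand) encodes the partner polymerase subunit and had a weak peak inside the gene. This IDR peak, at 11582475 to 11582818 in an intron, had a signal of 50.1 and rank 5151. It lay 492 bp upstream of an internal transcript start at 11583139. Its signal was 33.6 in replicate 1 (rank 5335) and 16.7 in replicate 2 (rank 4939). At the first start of rib-1 there was only a relaxed call, 130 bp upstream, with a pooled signal of 14.4 and rank 13759. The strong peak in the promoter windows of both rib-2 and tbb-1 thus had no counterpart of similar strength at either start of rib-1.

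**Figure D2:**
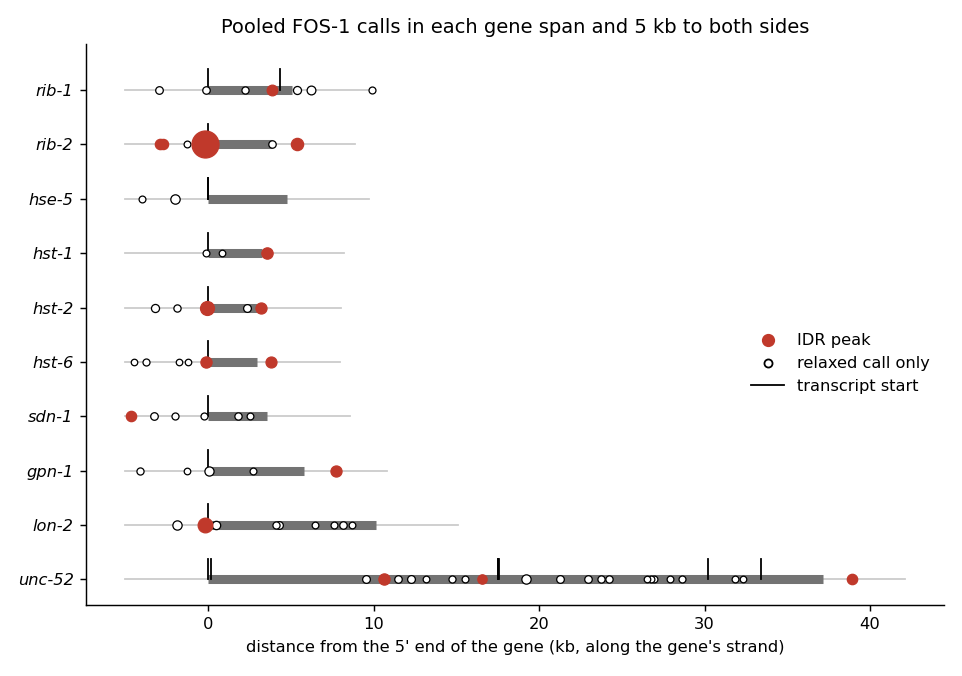
Pooled calls along each gene span (thick bar) and 5 kb to both sides (thin line), in kb from the 5′ end of the gene, with transcript starts as ticks; filled points are IDR peaks, open points are relaxed calls only, and point area grows with signal. The rib-2 peak is the largest point, and unc-52 has no call over the first 9515 bp of its span.

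Among the modification enzymes, the start of hst-2 had the strongest peak and the starts of hse-5 and hst-1 had none in the IDR list. hst-2 (WBGene00002029, chromosome X, 11204103 to 11207155, minus strand) encodes the sulfotransferase of the 2-O position. Its peak, with a pooled signal of 99.2, had its summit 40 bp upstream of the start. The replicate signals were 57.7 (rank 2489) and 36.4 (rank 1304), and the summits were 0 and 15 bp from the pooled one. No other protein-coding start lay within 1 kb of that summit; the next was that of C34F6.5, 1467 bp away. A further IDR peak downstream of hst-2, with a signal of 55.1, lay 21 bp upstream of C34F6.11.

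hst-6 (WBGene00002031, chromosome X, 5275561 to 5278519, plus strand) encodes the 6-O-sulfotransferase. Its promoter peak had a pooled signal of 56.8 and rank 4417, 119 bp upstream of the start. The signals were 44.98 in replicate 1 (rank 3680) and 14.9 in replicate 2 (rank 5609). As at rib-2, the summit was close to a divergent start, that of rga-8 at 153 bp, and it fell in the 5′ UTR of another rga-8 transcript. The starts are 272 bp apart, and the call lies in both promoter windows. The second IDR peak of the locus had a signal of 53.9 and lay 102 bp upstream of Y34B4A.2, within an rga-8 intron. That peak was in promoter windows of both Y34B4A.2 and rga-8.

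hst-1 (WBGene00002028, chromosome IV, 8688276 to 8691513, minus strand) encodes the N-deacetylase and N-sulfotransferase that starts the modification of the chain. Its IDR peak, with a signal of 58.5 and rank 4251, lay beyond the 3′ end of the gene, 147 bp upstream of snrp-3, which encodes a protein of the spliceosome. The call in the hst-1 promoter window was a relaxed one with a pooled signal of 8.53 and rank 20600. It lay 144 bp upstream of hst-1 and 88 bp upstream of the divergent ints-6. It had a counterpart of signal 6.21 in replicate 1 and none in replicate 2.

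hse-5 (WBGene00002003, chromosome III, 4345334 to 4350079, plus strand) encodes the epimerase that turns glucuronic into iduronic acid. No call of any list lay in its promoter window. The strongest pooled call of its locus had a signal of 33.8 and rank 7482, just outside the IDR list, whose lowest signal is 33.9. It lay 2023 bp upstream of hse-5 and 25 bp inside the start of B0285.3. The replicates ranked this call differently, at 9934 in replicate 1 with a signal of 16.5, and at 5052 in replicate 2 with a signal of 16.4.

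The core protein genes divided into lon-2, with a peak at its start, and the others, with weaker or more distant calls. lon-2 (WBGene00003056, chromosome X, 4738964 to 4749083, minus strand) encodes a glypican, a core protein held at the membrane by a lipid anchor, and is known for restraining the BMP-like signal that sets body length. Its peak was listed with a width of 123 bp, and its summit lay 200 bp upstream of the start. Most pooled calls of the loci have the same width of 344 bp, so width is not read as an extent of binding. The signals were 83.6 in replicate 1 (rank 1034) and 29.6 in replicate 2 (rank 2057), and the summits were 18 and 2 bp from the pooled one. The next start of another protein-coding gene was 5835 bp away. Inside the lon-2 span lay 7 relaxed calls and no IDR peak. A relaxed call 1858 bp upstream, with a signal of 32.8 and rank 7674, was close to the IDR threshold.

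gpn-1 (WBGene00001687, chromosome X, 15681693 to 15687477, plus strand) encodes the other glypican. The call at its start, 43 bp downstream in the 5′ UTR, had a pooled signal of 31.6 and rank 7915, below the IDR threshold. The signals in its promoter window were 24.9 in replicate 1 (rank 7126) and 10.3 in replicate 2 (rank 8106). The IDR peak of the locus, with a signal of 55.6, was nearest to C03H12.1, whose start was 2 bp from the summit.

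sdn-1 (WBGene00004749, chromosome X, 10589770 to 10593334, minus strand) encodes syndecan, the transmembrane core protein. Its IDR peak, with a signal of 45.8 and rank 5633, was intergenic and in no promoter window. The summit lay 4682 bp upstream of the sdn-1 start, which was still the nearest, as flp-19 started 6670 bp away. The signals were 30.1 in replicate 1 (rank 5978) and 18.5 in replicate 2 (rank 4313). At the start itself the pooled call had a signal of 9.82 and rank 18382.

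unc-52 (WBGene00006787, chromosome II, 14647321 to 14684456, minus strand) encodes perlecan, the large core protein of the basement membrane under muscle. With 47.1 kb its locus makes up 26.3% of all locus bases, and it had 21 of the 70 pooled calls. No call of the pooled or replicate lists lay in the 5 kb upstream of its first start, and the first pooled call inside the gene was 9515 bp from the 5′ end. The first calls of replicates 1 and 2 lay at 9504 and 9452 bp. An intronic IDR peak at 14667703 to 14668046 lay 932 bp upstream of a start within the gene, with a signal of 34.2 and rank 7407, just inside the threshold. That peak rested more on replicate 1, with a signal of 27.4 and rank 6579, than on replicate 2, with 7.94 and rank 10250. A second intronic peak, with a signal of 57.6 and rank 4322, was 6907 bp from the nearest unc-52 start. It was nearer to the start of hhat-1, 4607 bp away. The third, with a signal of 46.3, lay 1455 bp upstream of atgp-2, beyond the 3′ end of unc-52.

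**Figure D3:**
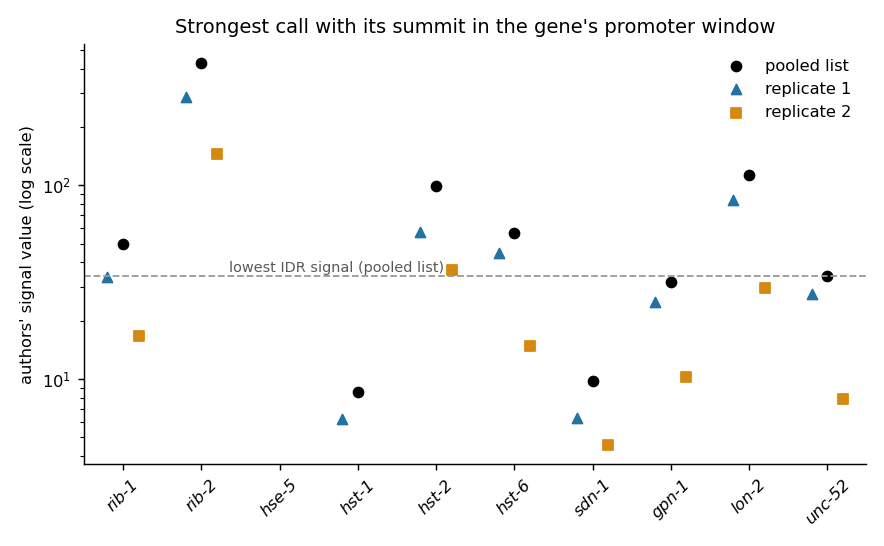
Signal (log scale) of the strongest call whose summit is in each gene's promoter window, in the pooled relaxed list and in each replicate's relaxed list; the dashed line is the lowest IDR signal, 33.9, which applies to the pooled list. No call stands at hse-5, none of replicate 2 at hst-1, and rib-2 is highest in all 3 lists.

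By nearest start, the IDR peaks in these loci were divided between the members and neighbouring genes. The nearest protein-coding start was the member's own for 7 of the 16 peaks and another gene's for 9. No such share over the loci of all protein-coding genes is given here, so these counts are not read as a trait of the group. By promoter windows, 6 peaks lay in a member's window, of which those at rib-2 and hst-6 were shared with a gene on the opposite strand. Another 7 lay in windows of other genes only, and 3 in none. Of the 16 summits, 11 were intergenic, 4 intronic and 1 in a 5′ UTR, and 0 were within 250 bp of a tRNA, snoRNA, snRNA, rRNA or miRNA gene. Shares of all IDR peaks are not given for these windows, classes and distances, so they too are not read as a trait of the group. Peak density over the 179.5 kb of loci was 0.891 per 10 kb.

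Both replicates had a call at all 16 peaks. Each of the 16 peaks overlapped a call in both relaxed replicate lists by at least 1 bp. The IDR list was derived from these lists, so this overlap was largely set in advance. No share of all IDR peaks is given for it. Among the strongest 7446 calls of each replicate, 14 of the 16 were found in both, against 79.5% of all IDR peaks. The others were the unc-52 peaks of rank 7407 and rank 5569, which had ranks 10250 and 8041 in replicate 2. Replicate summits lay a median of 14.5 bp from the pooled summit, against 10 bp for all IDR peaks, and the largest shift was 198 bp at a smap-1 peak that shares its replicate call. Of the 54 relaxed calls outside the IDR list, 25 had a counterpart in both replicates, 19 in replicate 1 alone, 9 in replicate 2 alone and 1 in neither. The same split over all such calls is not given here, so it is not read as a trait of these loci. In each replicate's relaxed list the loci held 69 calls.

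How many of the 10 genes had a call depended on the list, as it did for genes at large. In the pooled relaxed list all 10 loci held a call, beside 79.5% of protein-coding genes, and 9 promoter windows did, beside 46.6%. In the relaxed list of replicate 1 the counts were 10, beside 80.8%, and 9, beside 47.4%. In that of replicate 2 they were 10, beside 88.2%, and 8, beside 47.6%. With only the strongest 7446 calls of a replicate, replicate 1 gave 9 loci, beside 56.8%, and 7 promoter windows, beside 23.2%. Replicate 2 gave 10 loci, beside 56.0%, and 5 promoter windows, beside 22.6%. The genes that moved between these were hse-5, with a strong enough call in replicate 2 alone, gpn-1, whose start passed in replicate 1 alone, and unc-52, whose promoter call failed in replicate 2. Among the IDR peaks above the median signal, 3 genes had one in the locus, beside 36.7%, and the same 3 in the promoter window, beside 12.6%. These were rib-2, hst-2 and lon-2.

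**Figure D4:**
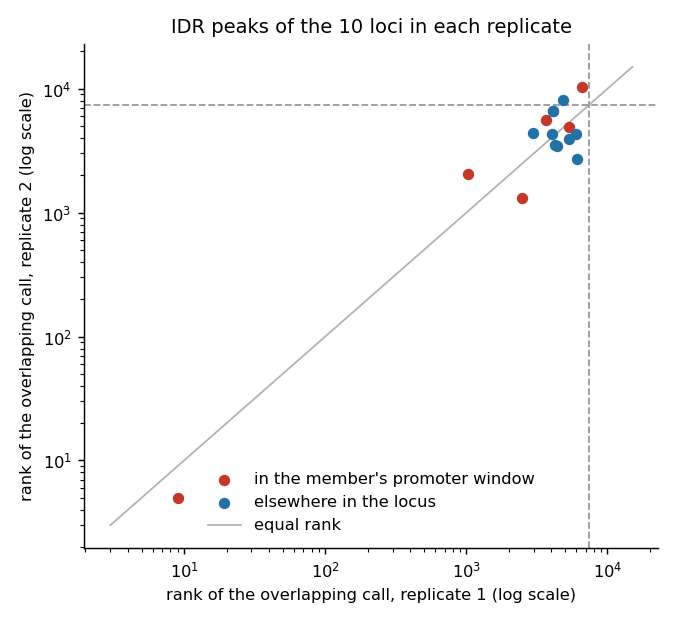
Rank of the overlapping call in replicate 1 against that in replicate 2 (log scales) for the 16 IDR peaks, with a line of equal rank; dashed lines mark rank 7446. The rib-2 peak stands at ranks 9 and 5, and the unc-52 peaks at ranks 10250 and 8041 of replicate 2 are above the horizontal line.

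The rib-2 promoter peak was the 1 IDR peak of the 16 with an AP-1 site within 50 bp of the summit, beside 3.55% of all IDR peaks. The looser word TGANTCA was found at that summit alone among the 16, and at 6.72% of all IDR summits. The loci together hold 26 AP-1 words, or 1.45 per 10 kb against 0.955 over the nuclear chromosomes. Of the 26, 1 lay inside an IDR peak and 7 inside a pooled relaxed call. Genome-wide, 5.82% of 9580 AP-1 words lay inside an IDR peak and 17.5% inside a pooled relaxed call. The unc-52 locus had 8 words, none inside a call, and hst-1 and hst-2 had 0.

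Outside the IDR list, 3 of the 54 relaxed calls had an AP-1 site at the summit, against 2.12% of all such calls. They are set beside the rib-2 word, with 10 bases to each side on the forward strand and the site in capitals, to show that the same 7 letters stand under calls of very different strength. The rib-2 word is on chromosome III at 10742633 to 10742639. The hse-5 word, on chromosome III at 4341324 to 4341330, is under a call of signal 8.67 and rank 20334 that had no counterpart in replicate 2. The lon-2 words are on chromosome X, the first at 4740943 to 4740949 under a call of signal 14.0 and rank 14088, the second at 4744974 to 4744980 under a call of signal 11.2 and rank 16566 with no counterpart in replicate 2.

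rib-2: gggacgagaaTGACTCAtttgccgcgg
hse-5 upstream: tgcctcgttcTGACTCAttattttctg
lon-2 first: ctgggttttgTGACTCAatgtttgcac
lon-2 second: aactgttcaaTGAGTCAttgataaaat

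The words at rib-2, hse-5 and lon-2 have the same core on one strand or the other and differ in their flanking bases. A match of letters does not show that the site was bound, and a missing match does not show that FOS-1 was absent.

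GATA sites were more common at these summits than AP-1 sites, as they were over the whole IDR list. There 3.55% of summits had an AP-1 site, and the GATA pattern takes in more and shorter words. A GATA site lay within 50 bp of 7 of the 16 summits, and 52.9% of all IDR summits have one. The extended form TGATAAG, which contains the GATA word TGATAA, lay at 2 of 16, against 22.8% of all. Those were the distal sdn-1 peak and the hst-2 downstream peak at C34F6.11. The E-box CACGTG lay at 1 summit, that near snrp-3, against 3.98% of all. The repeat GAGAGAG lay at 1, in the unc-52 intron, against 9.83% of all. Matches were sought on both strands.

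Other genes of heparan sulfate and matrix biology had IDR peaks about as often as genes at large. Of 41 genes in 6 lists, 24 or 58.5% had an IDR peak in the locus, beside the 57.0% of all protein-coding genes. A promoter window held an IDR summit in 7 or 17.1%, beside 23.4%. For 4 of the 24, the strongest peak was nearest to the gene's own start. These were sqv-4, sqv-8, unc-5 and egl-17. The share of all genes under this rule is not given here.

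Genes of the linker sugars and of sugar and sulfate precursors, which also serve chondroitin, had peaks in 6 of 10 loci and 2 of 10 promoter windows. The strongest lay 490 bp upstream of sqv-3, a galactosyltransferase gene of the linker, with a signal of 257.5 and rank 67. It was nearer to vha-1, a proton pump gene 410 bp away. The signals at this peak were 181.4 in replicate 1 and 76.7 in replicate 2. sqv-8, which encodes the glucuronyltransferase that completes the linker, had a peak of signal 171.0 and rank 353, 701 bp upstream. The peak of signal 238.7 in the locus of pst-2, a transporter of the sulfate donor, was 126 bp upstream of ska-3. The peak of signal 115.6 in the locus of sqv-2, another galactosyltransferase gene of the linker, was nearest to pinn-1.

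The 3 other modification genes, hst-3.1, hst-3.2 and sul-1, had no IDR peak in the locus. Chondroitin genes had peaks in 3 of 4 loci, and 1 of these peaks, in the promoter window of the chondroitin synthase gene sqv-5, had an AP-1 site. Its signal was 37.7, and its summit was 368 bp from the start of sqv-5 and 71 bp from that of T24D1.7. The loci of cpg-1 and cpg-2, which encode chondroitin core proteins, had peaks of signal 94.9 and 58.3, with atf-7 and odd-1 as the genes of the nearest starts. The other core protein genes, agr-1 for agrin and cle-1 for collagen XVIII, had locus peaks of signal 52.6 and 66.4, nearest to F41G3.18 and pas-4, and none in a promoter window.

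Basement membrane genes had peaks in 7 of 10 loci and 1 promoter window, that of nid-1, the nidogen gene (signal 42.9). The strongest locus peaks here were at let-2, a collagen IV gene (signal 162.0), him-4, the hemicentin gene (122.8), lam-1, a laminin gene (109.6), and nid-1 (92.7). Their nearest starts were those of sur-7, F15G9.5, W03F8.4 and dhrs-4. A weaker IDR peak of the let-2 locus had an AP-1 site. Ligand and receptor genes that work with heparan sulfate had peaks in 6 of 12 loci and 3 of 12 promoter windows. In promoter windows these were egl-17, a fibroblast growth factor gene (signal 95.4), sma-6, a BMP-type receptor gene (50.6), and unc-40, the netrin receptor gene (41.0). The strongest peaks of the sma-6 and unc-40 loci, with signals of 184.4 and 139.3, were nearest to set-4 and aprt-1. The unc-6 locus, of the netrin gene, had a peak of signal 44.96 nearest to F41C6.7. None of these promoter peaks reached the 427.5 of rib-2.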

How the data were processed

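The authors deposited peak lists on ce11 and ce10 for 1 group of 2 biological replicates. Per the manifests deposited with them, each relaxed list came from a replicate's alignment, or both pooled, together with a control, and the IDR list was derived from these 3. The deposited signal value (narrowPeak column 7) and the −log10 q-value are those of the authors' peak caller; all IDR peaks share a −log10 q of 4.25, so peaks were ranked by signal. No aligner or peak caller is named in the sources used here. The control was not analysed here, and the ce10 lists were not used here because no gene models of that build were used. Read depth is unknown, so no interval on a signal value is given.

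The 4 ce11 lists were joined in Python 3.11.15 to Ensembl release 115 gene models and the WBcel235 genome, with every call inside the matching chromosome. The 7446 IDR peaks were the 7446 strongest pooled relaxed calls. Positions count from 1. Where several replicate calls overlapped a peak, the strongest was taken. The locus, promoter and motif rules were checked on planted cases. No test was made: the members, lists and rules were chosen with earlier results of these data known. Named genes are the 10 members, the gene of the nearest protein-coding start to each IDR peak of a locus, up to 4 genes of each other list with the strongest locus peak, and the 3 most similar peaks to that of rib-2; sqv-4, unc-5, hst-3.1, hst-3.2, sul-1 and other neighbouring genes were named after their values were seen. The alternatives were other margins, promoter windows, overlaps and motif windows, the IDR peaks above the median signal, the relaxed list and each replicate alone.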

Additional observations from a re-analysis of the deposited data

How the results depend on the processing

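No paired analysis was possible because there is 1 group. The count of IDR peaks in the loci follows the margin, with 16 at 5 kb, 25 at 10 kb and 3 in the gene spans alone; in the spans alone 2 genes had a peak, rib-1 and unc-52, since the peaks at the starts lie upstream. Among IDR peaks above the median signal there were 4 peaks in 3 loci, and 3 genes had a summit in a promoter window (rib-2, hst-2 and lon-2). The whole pooled relaxed list gave 70 calls. With GATA sites sought anywhere in the peak, 12 of 16 had one, and 7 within 50 bp of the summit. With 1 replicate left out, and the strongest 7446 calls of the other used, the loci held 15 to 19 calls, 9 to 10 genes had a call in the locus and 5 to 7 a summit in a promoter window; hse-5 gained its call without replicate 1, where unc-52 lost its promoter call, and gpn-1 gained one without replicate 2. The other alternatives moved these counts by at most 1.5 times. The rib-2 peak was the single IDR peak with an AP-1 site under each motif window tried. Depth is unknown, and no call at a start does not show that FOS-1 was absent there in some cells.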
